A study of Mus musculus with 23 samples.

Results

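The lysosomal genes described here are the cathepsins, the subunits of the vacuolar proton pump and the LAMP membrane proteins. They were taken as every gene read by a probe set of its own whose symbol starts with Atp6v or Lamp, or is Cts followed by 1 letter or number. This gave 45 genes (48 probe sets) of 19938 genes on the array: 20 cathepsins, 21 pump subunits and 4 LAMP genes. Of these, 30 were bright enough to be tested: 12 cathepsins, 16 pump subunits and 2 LAMP genes.

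RNA was measured on 23 Mouse Gene 1.0 ST arrays, a short-oligonucleotide platform with 1 summarised intensity per probe set. Each array was hybridised with total RNA of 1 kind of dendritic cell sorted from mouse spleen: conventional dendritic cells type 1 (cDC1), type 2 (cDC2) or plasmacytoid dendritic cells (pDC). Cells came from wild-type mice (WT, 3 arrays for each cell type) or from mice with a conditional deletion of the transcriptional repressor gene Bcl6 (cKO, 4 arrays for cDC1 and 5 each for cDC2 and pDC). The Cre line, and with it the range of cells that lost Bcl6, is not given in the sources used here, nor are strain, age or the number of animals per array. Nothing in the labels ties an array to an animal; p-values therefore measure how far these samples scatter, and that scatter may be technical. In sorted bulk RNA, a smaller share of cells of a type and less RNA per cell cannot be told apart.

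Lysosomes are acidic compartments in which proteins, lipids and sugars are broken down. The proton pump, or V-ATPase, acidifies them: its V1 part in the cytosol splits ATP, and its V0 part in the membrane carries protons. Cathepsins are the proteases that work at this low pH, and LAMP1 and LAMP2 are the most abundant glycoproteins of the lysosomal membrane. In dendritic cells the same compartment cuts antigens and the invariant chain, so that peptides can be loaded on MHC class II molecules. Many lysosomal genes carry the CLEAR element, a palindrome built around the E-box CACGTG that TFEB and its relatives bind.

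RefSeq promoter windows of GRCm38.p6 (250 bases before to 50 after an annotated start, 300 in all) were found for 35 of the 45 genes. Each motif was searched on both strands. The CLEAR core TCACGTGA was in the windows of 5 of the 35 genes (14.3%). By windows, it was in 13.2% of the 38 windows of these genes and in 0.974% of 32851 windows of all genes. These 5 genes are the pump subunits Atp6v0d1, Atp6v0e and Atp6v1a and the cathepsins Ctsa and Ctsd. Of the 38 windows, 12 are built on a start inside the gene record. Among these are the windows that hold the core of Ctsa (901 bases inside) and of Atp6v1a (443). The E-box CACGTG, which lies inside the CLEAR core, was found in 9 of the 35 genes (25.7%). By windows, that is 23.7% of the 38, beside 7.15% of all windows. Lamp1, Ctsl, Ctsf and Atp6v0b held it without the full core. TTCNNNGAA, a spacing shared by STAT and BCL6 sites, was found in Ctsc, Ctsg and Lamp3, or 8.57% of the 35 genes. By windows, that is 7.89% of the 38, near the 8.3% of all windows. A match is a description of these letters and not a site. The stretches below are shown because Lamp1 and Ctsc are the 2 genes called between genotypes below, and Ctsd holds the full CLEAR core. Capitals mark the motif matches, each sequence reads 5′ to 3′ on the gene's strand, and bases inside the RefSeq gene record were left out.
Lamp1 (chr8:13158911-13159160, plus strand): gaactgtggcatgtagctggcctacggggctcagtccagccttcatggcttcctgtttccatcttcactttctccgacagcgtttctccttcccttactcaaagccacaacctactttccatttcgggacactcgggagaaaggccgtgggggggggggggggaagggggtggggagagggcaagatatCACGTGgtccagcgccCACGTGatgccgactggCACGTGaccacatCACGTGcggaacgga
Ctsc (chr7:88277835-88278023, plus strand): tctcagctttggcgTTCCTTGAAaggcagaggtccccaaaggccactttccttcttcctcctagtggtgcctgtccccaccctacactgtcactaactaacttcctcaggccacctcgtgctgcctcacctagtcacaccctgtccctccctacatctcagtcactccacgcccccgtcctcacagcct
Ctsd (chr7:142387828-142388077, minus strand): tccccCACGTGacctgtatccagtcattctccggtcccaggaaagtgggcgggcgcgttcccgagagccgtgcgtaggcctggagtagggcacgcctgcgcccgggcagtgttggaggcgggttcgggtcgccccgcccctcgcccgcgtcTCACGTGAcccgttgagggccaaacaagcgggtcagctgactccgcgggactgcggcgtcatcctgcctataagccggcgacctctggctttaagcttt
The Lamp1 stretch holds 4 E-boxes within 61 bases of the start, and the CLEAR core of Ctsd begins 99 bases before its start. The annotated start on which the Ctsc window is built lies 61 bases inside the gene record, and the TTCNNNGAA match begins 236 bases before that start.

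Levels below are log2 of the deposited intensity, on which the mean log2 array median was 5.1, and a level is never compared between genes. Array medians ran from 29.3 to 41.2 intensity units with a gap between a low set of 14 arrays (up to 34.3) and a high set of 9 (38.9 or more), and every group had arrays in both. WT array 1 of each cell type carried high Xist (10.9, 11.28 and 11.89, against 5.07 or less on every other array, cKO included). Summed intensities of 10 cDC1 markers were 14400 to 23400 in cDC1 and at most 9150 elsewhere, and 7 pDC markers summed to 18700 to 32200 in pDC and at most 2970 elsewhere. The 10 cDC2 markers did not part cDC2 from pDC by their sum (3950 to 5430 in WT cDC2, 4070 to 6520 in WT pDC). By the limma test used below, 3 of the 10 were higher in WT cDC2 than in WT pDC (Itgam, Clec4a4 and Esam). Another 3 were lower (Clec10a, Zeb2 and Cd4). Itgam had means of 8.41 in WT cDC2 and 5.34 in WT pDC, and Clec10a 5.78 and 8.59. Bcl6 itself had a single probe set, and if it reads a stretch that was not deleted it checks nothing. Its cKO minus WT difference was 0.97 ± 0.35 (log2, SE) in cDC1, 0.69 ± 0.33 in cDC2 and -0.15 ± 0.33 in pDC, with limma adjusted p of 0.598, 0.756 and 1.

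The first question was whether any of the lysosomal genes changed with the deletion of Bcl6. In cDC1 a single member passed the test, the protease gene Ctsc, 2.36-fold higher in cKO. In cDC2 a single member passed, Lamp1, 2.13-fold higher in cKO. In pDC none passed. Calls here and below are limma adjusted p under 0.05 with Benjamini-Hochberg adjustment over 12157 genes. The background was 0.831% of all genes called in cDC1, 1.56% in cDC2 and 0.0329% in pDC, and a single call among 30 members shows nothing particular to them. Before adjustment, p was under 0.05 for 3, 4 and 0 of 30 members (10, 13.3 and 0%), beside 3.28, 6.5 and 1.99% of all genes. The median member difference was 0.17 in cDC1, 0.12 in cDC2 and 0.09 in pDC on the log2 scale, and that of all genes 0.06, 0.07 and 0.05.

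Ctsc encodes cathepsin C (dipeptidyl peptidase I), which trims and activates the granzymes and other granule proteases. In WT cDC1 its levels were 9.40, 9.17 and 10.21 (mean 9.59 ± 0.55, SD, n = 3). In cKO cDC1 they were 10.30, 10.85, 11.04 and 11.14 (10.83 ± 0.38, n = 4). All 4 cKO arrays lay above all 3 WT arrays, the lowest cKO array being close to the highest WT array, which belongs to the high-median set. The difference was 1.24 ± 0.29 (log2, SE), a 2.36-fold rise (limma adjusted p = 0.0407). Within the low-median arrays it was 1.29 and within the high-median arrays 0.88. The call is close to the threshold. Without WT cDC1 array 2 the difference was 1.03 and the adjusted p 0.464, and without the 3 high-Xist WT arrays they were 1.14 and 0.3. Leaving out WT cDC1 array 1 or cKO cDC1 array 2, 3 or 4 also ended it (adjusted p of 0.0971 to 0.277), as did leaving out WT cDC2 array 2, cKO cDC2 array 2, 3 or 4 or cKO pDC array 2 (0.0516 to 0.0545), testing all genes with no filter (0.0573) and limma-trend with robust eBayes (0.0511).

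Some markers of cDC2 rose in cKO cDC1, as Ctsc did. The 10 markers summed to 316 to 393 in WT cDC1 and 1170 to 1380 in cKO cDC1, against 3950 to 5430 in WT cDC2. Of the 10 markers tested, 4 were called higher in cKO cDC1 (Sirpa, Itgam, Cd209a and Zeb2) and none lower. Over all genes, 0.831% were called there. Clec4a4, Mgl2, Irf4 and Cd4 had lower means in cKO than in WT cDC1, and the median difference of the 10 was 0.32. Ctsc itself was close between the WT types, 9.59 in cDC1 and 10.09 in cDC2 (difference -0.49 ± 0.31, adjusted p = 0.61). The mean in cKO cDC1, 10.83, was above that of WT cDC2. Ctse, the member with the largest excess in WT cDC2 over WT cDC1, differed by 0.39 ± 0.45 between cKO and WT cDC1 (adjusted p = 1). Of 13 red pulp macrophage markers tested, Adgre1 rose in cKO cDC1, as did the mature DC marker Socs2 (1 of 7 tested), while Cd5l was not above the array median on any array. The part of these markers in the Ctsc difference was not tested.

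The other cell types gave smaller Ctsc differences. In cDC2 the WT arrays read 9.78, 10.03 and 10.45 and the cKO arrays 10.24, 10.78, 10.63, 10.72 and 10.92. The groups overlapped through 1 cKO array, and the difference was 0.57 ± 0.28 (adjusted p = 0.78). In pDC the WT arrays read 9.16, 9.54 and 9.63 and the cKO arrays 8.91, 8.98, 8.65, 9.79 and 9.60, with 3 of 5 cKO arrays below all WT arrays and a difference of -0.26 ± 0.28 (adjusted p = 1). The genotype effect in cDC1 exceeded that in pDC by 1.5 ± 0.40, which did not pass over all genes in the main fit (adjusted p = 0.23). Some alternative fits did call a member in this difference, as given with the processing. In the main fit, 0 of 30 members were called in this difference and 0 in either of the other differences between cell types (limma). The shares over all genes were 0.329, 0.28 (cDC1 minus cDC2) and 0.485% (cDC2 minus pDC). Unadjusted p was under 0.05 for 1, 1 and 2 of the 30.

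Lamp1 encodes the LAMP1 glycoprotein that lines the inside of the lysosomal membrane. In cDC2, WT arrays read 7.95, 7.69 and 8.28 (7.97 ± 0.30, SD, n = 3) and cKO arrays 8.91, 9.45, 8.63, 9.21 and 9.13 (9.06 ± 0.31, n = 5). Every cKO array was above every WT array. The difference was 1.09 ± 0.27, a 2.13-fold rise (adjusted p = 0.0358), and 1.17 and 0.89 within the low-median and high-median arrays. Without the 3 high-Xist WT arrays it was 1.08 with an adjusted p of 0.157, and without WT cDC2 array 2 it was 0.95 with an adjusted p of 0.248. Leaving out WT cDC2 array 1 (adjusted p = 0.153) or cKO cDC2 array 1, 2, 4 or 5 (0.0515 to 0.0989) also ended the call.

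In cDC1, Lamp1 read 7.97, 7.38 and 8.16 on WT arrays and 8.69, 8.58, 9.14 and 9.02 on cKO arrays, again with no overlap. The difference of 1.02 ± 0.28 did not pass over all genes (adjusted p = 0.132); it passed after quantile normalization (0.92, adjusted p = 0.0133) and with the array set as a term (0.96, adjusted p = 0.0346). In pDC the levels overlapped: 8.30, 7.35 and 7.96 in WT and 7.99, 8.30, 7.71, 8.83 and 8.40 in cKO (0.38 ± 0.27, adjusted p = 1). The mean of the 3 genotype effects was 0.83 ± 0.16 for Lamp1 (1.78-fold, adjusted p = 0.00355), the 1 member called of 30 in that contrast against 1.31% of all genes. This call held in every alternative fit, including each array left out in turn, where the adjusted p reached at most 0.0143. The 3 effects were not shown to differ from each other: cDC1 minus cDC2 was -0.07 ± 0.39 and cDC2 minus pDC 0.71 ± 0.38 (both adjusted p = 1).

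Red pulp macrophages are rich in lysosomes, and 2 of their 13 tested markers, Cd163 and Mertk, rose in cKO cDC2, as Lamp1 did. The share over all genes called there was 1.56%, and the median of the 13 was 0.38. Adgre1, Hmox1, Timd4 and Marco had lower means in cKO than in WT cDC2. The 14 markers summed to 716 to 1310 in WT cDC2 and 901 to 1540 in cKO cDC2, and Cd5l stayed below the array median on every array. The 5 T cell markers tested had a larger median, 0.67, with none called. Cd3g had means of 5.85 in WT and 7.91 in cKO cDC2. Of the cDC2 markers, Itgam, Cd209a, Clec10a and Mgl2 rose and Clec4a4 fell in cKO cDC2, and of the monocyte markers Ccr2 rose. Of the 10 cDC1 markers Naaa rose in cKO cDC2 (list median 0.43), of the mature DC markers Ccl22 and Socs2 rose, and of the neutrophil markers Csf3r fell. In WT cDC1 and WT cDC2, Lamp1 was at 7.84 and 7.97, and all 4 cKO cDC1 arrays lay above the 3 WT cDC2 arrays. The part of these markers in the Lamp1 differences was not tested.

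Lamp2, on the X chromosome, encodes the second main membrane glycoprotein. It differed by 0.24 ± 0.18 in cDC1, 0.21 ± 0.17 in cDC2 and 0.09 ± 0.17 in pDC between the genotypes (adjusted p = 1 in each). The 95% interval in cDC2, -0.14 to 0.56, leaves out a rise of the size seen for Lamp1 there.

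Ctsa encodes cathepsin A, the carboxypeptidase that also protects beta-galactosidase and neuraminidase in the lysosome. In cDC1 it read 8.38, 7.56 and 8.18 in WT and 9.08, 8.62, 9.31 and 9.07 in cKO. The groups did not overlap, but the difference of 0.98 ± 0.32 did not pass over all genes (adjusted p = 0.345). In cDC2 and pDC the differences were -0.08 ± 0.30 and 0.40 ± 0.30. The gap between the cDC1 and cDC2 effects was 1.06 ± 0.44, with an unadjusted p of 0.0239 and an adjusted p of 1.

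In the main fit none of the 16 pump subunits was called between genotypes in any cell type. Their differences ran from -0.24 to 0.24 in cDC1, -0.51 to 0.59 in cDC2 and -0.21 to 0.49 in pDC, with unadjusted p under 0.05 for 0, 2 and 0 of them. The lowest value belonged to Atp6v1d, which encodes subunit D of the rotor shaft. In cDC2 it read 8.09, 8.25 and 8.55 in WT and 7.60, 7.98, 7.58, 8.12 and 7.69 in cKO, with 4 of 5 cKO arrays below all WT arrays (-0.51 ± 0.19, adjusted p = 0.387). The highest was Atp6v0a2 in cDC2, a membrane subunit isoform, at 0.59 ± 0.26 (adjusted p = 0.663). A second, dimmer probe set of Atp6v0a2 differed by 0.39 there.

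In pDC the 2 smallest p values among members were those of Atp6v0a2 and Ctsw, given as values. Atp6v0a2 read 8.16, 6.97 and 7.41 in WT and 8.14, 8.32, 7.60, 8.48 and 7.49 in cKO (0.49 ± 0.26, unadjusted p = 0.0757). The dimmer Atp6v0a2 probe set differed by 0.03 in pDC, and the mean of both by 0.26. Ctsw, a cathepsin of NK and cytotoxic T cells, read 5.29, 5.72 and 6.70 in WT and 6.19, 6.14, 6.47, 6.23 and 7.37 in cKO (0.57 ± 0.33, unadjusted p = 0.0905). Both groups overlapped in each gene. The summed level of 7 NK markers was 922 on WT array 2, where Ctsw read 5.72, and 243 on cKO array 5, where it read 7.37.

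**Figure D1:**
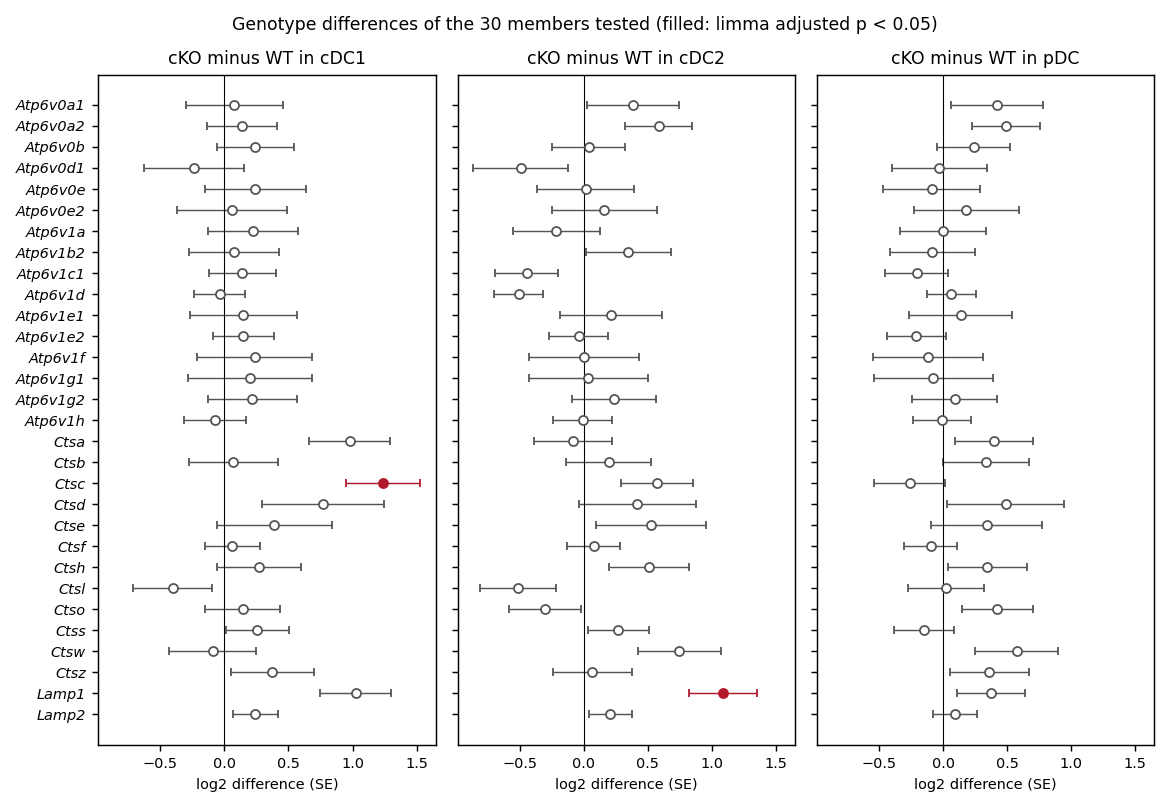
Difference between cKO and WT for each of the 30 members tested, 1 panel per cell type; the x axis is the log2 difference and bars are limma standard errors. Filled red points passed the test: Ctsc in cDC1 (1.24) and Lamp1 in cDC2 (1.09), with no filled point in pDC.

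The WT arrays showed how the lysosomal genes differ between the 3 cell types. The pDC were highest in the cysteine cathepsin genes Ctsl, Ctsb and Ctso and in Lamp2. The cDC2 were highest in Ctse, while cDC1 were lowest in Ctsa and highest in Atp6v0a2. Between cDC1 and cDC2, 1 of 30 members was called higher in cDC1 (3.02% of all genes were) and 2 lower (3.04%). Between cDC1 and pDC, 1 was higher in cDC1 (8.37%) and 5 lower (5.14%). Between cDC2 and pDC, 1 was higher in cDC2 (7.93%) and 6 lower (4.8%). With the replicate number as a block among WT arrays, 10 members were called between cDC1 and pDC, Atp6v1d, Atp6v1h, Ctsh and Ctsw being added. The median difference of the 30 members was -0.06, -0.30 and -0.15, and that of all genes 0.04, 0.05 and 0.02. Of the 12 cathepsins, 4 passed between cDC1 and pDC, all with the lower level in cDC1, and the median of the 12 was -0.76.

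Ctsl encodes cathepsin L, an endopeptidase that degrades the invariant chain in thymic epithelium. It read 5.58, 5.31 and 6.38 in WT cDC1 and 6.13, 6.63 and 7.24 in WT cDC2. In WT pDC it read 9.97, 9.92 and 10.48. Every pDC array stood far above every conventional array, with differences of -4.36 ± 0.33 for cDC1 minus pDC (20.6-fold, adjusted p = 1.02e-09) and -3.46 ± 0.33 for cDC2 minus pDC (11-fold, adjusted p = 6.74e-08). The cDC1 levels were close to the array median, so the size of that fold is uncertain. The conventional types overlapped (-0.91 ± 0.33 for cDC1 minus cDC2, adjusted p = 0.132). The cKO arrays kept this order: 4.84 to 5.71 in cDC1, 5.57 to 6.58 in cDC2 and 9.73 to 10.28 in pDC, with differences of -4.79 ± 0.27 and -3.99 ± 0.26 from pDC (adjusted p = 3.28e-12 and 4.46e-11).

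Ctsb encodes cathepsin B, a cysteine protease found in most lysosomes. WT pDC read 11.84, 10.41 and 11.22, above all WT cDC1 arrays (9.89, 9.24 and 10.06) and all WT cDC2 arrays (9.61, 9.02 and 9.83). The difference was -1.42 ± 0.38 for cDC1 minus pDC (2.68-fold, adjusted p = 0.0105) and -1.67 ± 0.38 for cDC2 minus pDC (3.18-fold, adjusted p = 0.00296). Without the 3 high-Xist arrays both missed the threshold, at -1.16 and -1.39 with adjusted p of 0.141 and 0.0695; the cDC1 difference also missed it without WT pDC array 1 (adjusted p = 0.0831) and without WT cDC1 array 2 (0.0692). In cKO, with more arrays, the same differences were -1.69 ± 0.31 (adjusted p = 0.000224) and -1.81 ± 0.29 (adjusted p = 4.46e-05).

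Ctso, a cysteine cathepsin gene, read 7.82, 7.32 and 7.22 in WT pDC, 5.75, 5.84 and 6.24 in WT cDC1 and 6.24, 6.39 and 6.67 in WT cDC2. The pDC arrays were above all others, with differences of -1.51 ± 0.31 for cDC1 minus pDC (2.85-fold, adjusted p = 0.00127) and -1.02 ± 0.31 for cDC2 minus pDC (2.03-fold, adjusted p = 0.0307). Without the 3 high-Xist arrays the adjusted p was 0.0563 and 0.375; the cDC2 call was also lost without WT pDC array 1 (0.141), WT cDC2 array 1 (0.123) or WT cDC2 array 2 (0.0801). In cKO the differences were -1.79 ± 0.26 and -1.75 ± 0.24 (adjusted p = 1.11e-05 and 6.61e-06).

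Ctse encodes cathepsin E, an aspartic protease of endosomes. WT cDC2 read 11.56, 9.65 and 10.63, a range of nearly 2 log2 units, against 7.02, 6.97 and 7.62 in WT cDC1 and 7.65, 7.64 and 7.98 in WT pDC. All cDC2 arrays were above all others. The difference was -3.41 ± 0.48 for cDC1 minus cDC2 (10.6-fold, adjusted p = 3.21e-05) and 2.85 ± 0.48 for cDC2 minus pDC (7.23-fold, adjusted p = 0.000154). In cKO cDC2 the levels were 11.64, 10.14, 10.85, 11.69 and 11.38, with differences of -3.55 ± 0.40 for cDC1 minus cDC2 and 3.04 ± 0.37 for cDC2 minus pDC (adjusted p = 8.18e-07 and 1.17e-06). WT and cKO cDC2 overlapped in Ctse, with a genotype difference of 0.53 ± 0.43 (adjusted p = 1).

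Ctsa was low in WT cDC1 beside the other types. Its WT levels were 9.87, 9.52 and 9.83 in cDC2 and 10.04, 8.86 and 9.93 in pDC, all above the 3 WT cDC1 arrays given earlier. The difference was -1.70 ± 0.34 from cDC2 (3.25-fold, adjusted p = 0.00174) and -1.57 ± 0.34 from pDC (2.97-fold, adjusted p = 0.00189). Among cKO arrays cDC1 was lower than pDC (-0.99 ± 0.28, adjusted p = 0.0119), a call lost without cKO cDC1 array 2 (adjusted p = 0.0519), while the difference of -0.64 ± 0.28 from cDC2 did not pass (adjusted p = 0.213).

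**Figure D2:**
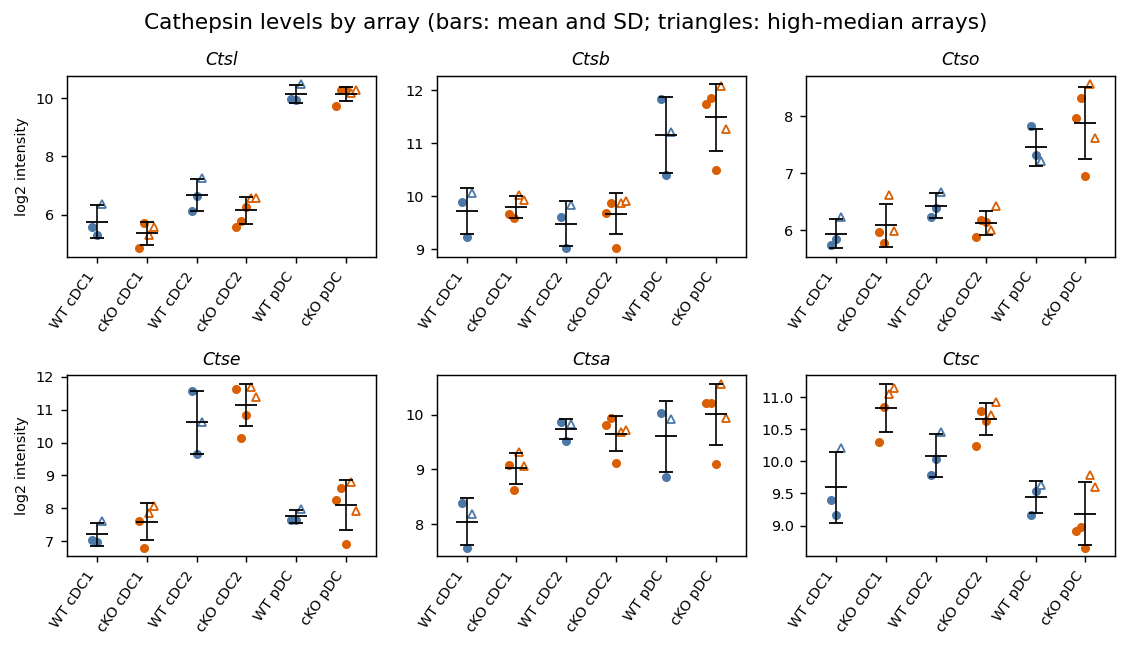
Levels of 6 cathepsin genes on each of the 23 arrays, as log2 intensity on the y axis, with blue for WT, orange for cKO, filled circles for the low-median and open triangles for the high-median arrays; black bars are mean and SD. Ctsl, Ctsb and Ctso were highest in pDC, Ctse in cDC2, and the cKO cDC1 arrays lay above the WT cDC1 arrays in Ctsa and Ctsc; each y axis has its own range and does not start at 0.

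Of the 16 pump subunits tested, Atp6v0a2 was the 1 called higher in WT cDC1 than in either other type. It read 9.83, 9.26 and 9.52 in WT cDC1, 8.06, 7.90 and 7.89 in WT cDC2, and 8.16, 6.97 and 7.41 in WT pDC. All cDC1 arrays lay above the others, by 1.59 ± 0.29 over cDC2 (3.01-fold, adjusted p = 0.00082) and 2.02 ± 0.29 over pDC (4.06-fold, adjusted p = 2.03e-05). The dimmer probe set differed by 0.43 and 0.08. The probe sets thus disagreed, the dimmer one showing little difference between WT cDC1 and WT pDC. With their mean the differences were 1.01 and 1.05 (limma adjusted p = 0.000654 and 0.000198). That mean holds the brighter probe set and is no separate support. In cKO the brighter probe set was higher in cDC1 by 1.14 ± 0.24 over cDC2 and 1.67 ± 0.24 over pDC (adjusted p = 0.00236 and 1.32e-05). The dimmer one differed by 0.23 and 0.25 there.

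The V1 subunit genes Atp6v1d and Atp6v1h (the regulatory subunit H) were lower in WT cDC2 than in WT pDC, with differences of -0.82 ± 0.21 and -0.81 ± 0.26 (adjusted p = 0.0107 and 0.0367). Atp6v1d read 9.21, 8.71 and 9.43 in WT pDC, above every WT cDC1 (8.51, 8.33 and 8.62) and WT cDC2 array. Its difference between cDC1 and pDC, -0.63 ± 0.21, just missed the threshold (adjusted p = 0.0535). Both cDC2 calls were lost without the 3 high-Xist arrays (adjusted p = 0.191 and 0.244), without WT cDC2 array 1 (0.0664 and 0.262) and without WT pDC array 3 (0.0669 and 0.143), and that of Atp6v1h also without WT pDC array 2 (0.0644). Without the high-Xist arrays 2 members (Ctse and Ctsl) were called between WT cDC2 and pDC in place of 7, and without WT cDC2 array 1 alone 4. In cKO, Atp6v1d was lower in cDC2 than in pDC (-1.39 ± 0.17, adjusted p = 7.61e-07), and 0.66 ± 0.18 higher in cDC1 than in cDC2 (adjusted p = 0.0163). The latter call was lost without cKO cDC1 array 3 or 4 or cKO cDC2 array 1 (adjusted p of 0.0511 to 0.0664). Of the other pump subunits, Atp6v1b2, a V1 subunit that binds ATP, was higher in cKO cDC1 than in cKO pDC (0.89 ± 0.31, adjusted p = 0.0409), a call lost without cKO cDC1 array 1, 3 or 4 or cKO pDC array 2, 3 or 5 (0.0555 to 0.138) and with no filter (0.0628). In the main fit the other 12 tested subunits were called in no pair of cell types of either genotype. Among them were the catalytic Atp6v1a and the proteolipid subunit Atp6v0b. With the array set or the replicate number as a term, more members were called between cKO cDC1 and cKO cDC2, as given with the processing.

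Lamp2 read 10.06, 9.83 and 10.22 in WT pDC, above WT cDC1 (8.92, 8.99 and 9.25) and WT cDC2 (9.10, 9.34 and 9.19). The differences from pDC were -0.99 ± 0.19 and -0.83 ± 0.19 (1.98-fold and 1.77-fold, adjusted p = 0.000553 and 0.00344; the second was -0.76 with an adjusted p of 0.0672 without the 3 high-Xist arrays), and in cKO -0.84 ± 0.16 and -0.71 ± 0.15 (adjusted p = 0.000252 and 0.000742). Lamp1 did not part the WT cell types, with group means of 7.84, 7.97 and 7.87, but was 0.82 ± 0.23 higher in cKO cDC2 than in cKO pDC (adjusted p = 0.0116).

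**Figure D3:**
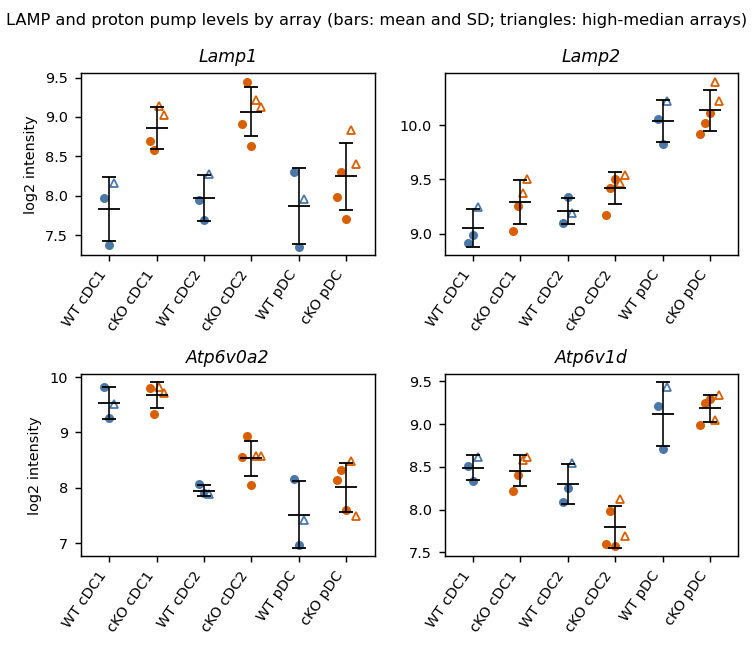
Levels of Lamp1, Lamp2 and 2 pump subunits on each of the 23 arrays, as log2 intensity on the y axis, with blue for WT, orange for cKO, filled circles for the low-median and open triangles for the high-median arrays; black bars are mean and SD, and y axes do not start at 0. Lamp1 was higher on all cKO than on all WT arrays in cDC1 and in cDC2 and overlapped in pDC; Lamp2 was highest in pDC and Atp6v0a2 in cDC1.

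The cKO arrays repeated most of these differences between cell types. Of 30 members, 3 were called between cKO cDC1 and cDC2 (8.95% of all genes), 12 between cDC1 and pDC (20.4%) and 9 between cDC2 and pDC (20.8%). Against pDC, cKO cDC1 were higher in Atp6v0a2, Atp6v1b2 and Ctsc and lower in Ctsa, Ctsb, Ctsh, Ctsl, Ctso, Ctsw, Atp6v1d, Atp6v1h and Lamp2; the Atp6v1h call was lost without any 1 of cKO cDC1 arrays 1 to 3 or cKO pDC arrays 3 to 5 (adjusted p of 0.0527 to 0.108). Those called in both genotypes numbered 2, 6 and 7, all with the same sign, so each WT call between a conventional type and pDC had its counterpart. Over the 30 members the WT and cKO differences had the same sign for 25, 22 and 23, or 83.3, 73.3 and 76.7%, beside 74.4, 77.8 and 78.5% of all genes. Pearson's r across the 30 members was 0.90, 0.94 and 0.96; genes are not independent replicates, and the value rests on the few members with large differences. After quantile normalization the call between cKO cDC1 and cDC2 moved from 2 higher and 1 lower to 2 higher and 3 lower, with Ctsl and Ctsw added.

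Ctsc was called between cell types among cKO arrays and not among WT arrays. It was higher in cKO cDC1 than in cKO pDC by 1.65 ± 0.26 (3.13-fold, adjusted p = 3.32e-05) and higher in cKO cDC2 by 1.47 ± 0.24 (2.78-fold, adjusted p = 5.92e-05). The WT differences were 0.15 ± 0.31 and 0.64 ± 0.31 (adjusted p = 0.884 and 0.229). The difference between these gaps is the difference between genotype effects given above, which did not pass in the main fit. Ctsw was lower in cKO cDC1 than in cKO pDC (-1.31 ± 0.30, adjusted p = 0.00227), as was Ctsh, the aminopeptidase cathepsin H (-0.95 ± 0.29, adjusted p = 0.0193). The Ctsh call was lost without cKO cDC1 array 2 or cKO pDC array 1, 2 or 4 (adjusted p of 0.0516 to 0.0755).

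**Figure D4:**
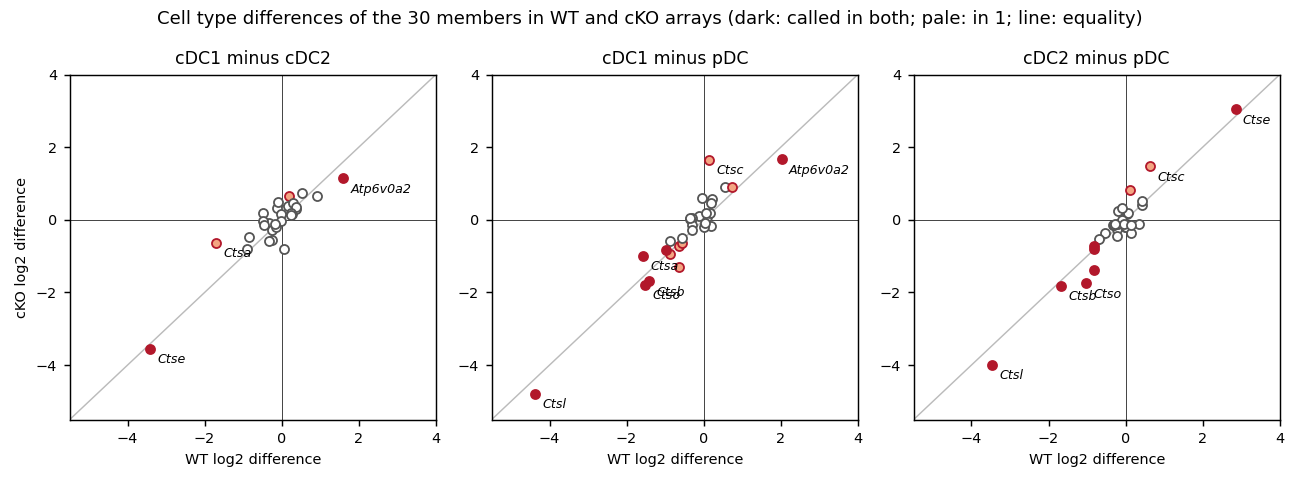
Log2 difference between 2 cell types among WT arrays (x axis) and among cKO arrays (y axis) for the 30 members, 1 panel per pair of cell types; dark points were called in both genotypes, pale points in 1, and the grey line marks equality. Ctsl, Ctse and Atp6v0a2 lie far from 0 near the line, while Ctsc lies above it in both panels against pDC.

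Ctss, the cathepsin that cuts the invariant chain in dendritic cells, was bright in every group, with means of 11.25 to 11.78. It was called in none of the 13 contrasts of the main fit, and neither were Ctsz, Ctsf or Ctsd, the main aspartic protease of lysosomes. Ctsd varied widely within groups, from 4.87 to 7.29 in WT pDC, with an SD of 1.25.

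The 15 members that were not tested were dim on nearly all arrays, between 2.48 and 5.36, and a level there is no evidence that the gene is silent. They include isoforms known from other tissues: the kidney pump subunits Atp6v0a4 and Atp6v1b1, the osteoclast genes Atp6v0d2 and Ctsk, and the placental cathepsins Cts6, Cts7, Cts8, Ctsj, Ctsq and Ctsr. The rest were Atp6v1c2, Atp6v1g3, Lamp3, Lamp5 and Ctsg, a neutrophil granule protease. A further 4 probe sets naming both Cts3 and Ctsm were left out by the rule, and none exceeded the array median on any array. Of the tested members, Atp6v0e2 exceeded the array median on 12 of 23 arrays, Atp6v1e2 on 13, Ctsf on 17 and Ctsw on 19, and Ctsl and Ctsd on 22. The remaining 24 exceeded it on every array.

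The wider lysosomal pathway was read from 8 lists with 138 tested genes. Between genotypes limma called 0 in cDC1 and 0 in pDC, beside 0.831 and 0.0329% of all genes. In cDC2 it called 3 of 138 (2.17%, beside 1.56% of all genes), 2 of them rises and 1 a fall. Unadjusted p was under 0.05 for 9 list genes in cDC1 (6.52%, beside 3.28% of all genes), 20 in cDC2 (14.5%, beside 6.5%) and 2 in pDC (1.45%, beside 1.99%). Naaa, a lysosomal amidase, rose 2.15-fold in cDC2, from 8.41 to 9.51 (1.10 ± 0.26, adjusted p = 0.0247). It also stands among the cDC1 markers, at 12.08 in WT cDC1, and the part of cDC1 markers in its rise was not tested. Mitf, a relative of TFEB, rose 2.04-fold from 5.08 to 6.11 (1.03 ± 0.20, adjusted p = 0.0049). Its WT level was close to the mean log2 array median of WT cDC2, 5.06, so the size of that fold is uncertain. Sort1, a receptor that carries enzymes to the lysosome, fell by 1.33 on the log2 scale (± 0.32, adjusted p = 0.0347). For the mean genotype effect Slc29a3, a nucleoside transporter of the lysosomal membrane, was 0.86 ± 0.20 higher (adjusted p = 0.0304), the 1 list gene called there beside 1.31% of all genes.

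Among WT cell types, 14 list genes were called higher in cDC1 than in cDC2 (10.1%, beside 3.02% of all genes) and 7 lower (5.07%, beside 3.04%). Against pDC, 26 were higher in cDC1 (18.8%, beside 8.37%) and 7 lower (5.07%, beside 5.14%). Against pDC, 16 were higher in cDC2 (11.6%, beside 7.93%) and 9 lower (6.52%, beside 4.8%). The lists were chosen with results of these data known, and nothing particular to them is read from these shares. Of 33 tested glycosidases, sulfatases and lipid hydrolases, 12 were called above the pDC level in cDC1 (36.4%) and 1 below it (3.03%). The shares over all genes were the same 8.37 and 5.14%. The largest differences, all higher in cDC1, were those of the cDC1 marker Naaa (46.1-fold), the hydrolase Ppt1 (8.45-fold) and the glycosidase Fuca1 (5.75-fold). Of 7 tested inhibitors of cathepsins and related proteases, 3 passed between WT cDC1 and pDC, each with the higher level in cDC1 (42.9%, beside 8.37% of all genes): Serpinb9 (8-fold, its pDC level being below the array median), Serpinb6b (7-fold) and cystatin C, Cst3 (1.94-fold). Of 31 other membrane proteins, 5 passed in each direction for the same pair (16.1%, beside 8.37% higher and 5.14% lower), from the tetraspanin Cd63 (13.7-fold higher) to the cholesterol exporter Npc1 (-2.44 ± 0.29). In the MHC class II list, 3 of 8 tested genes (37.5%) were higher in cDC1 and 3 of 8 in cDC2 than in pDC. The shares over all genes were 8.37 and 7.93%. The genes were H2-Ob, H2-Eb1 and the class II transactivator Ciita (5.66-fold and 4.31-fold), the same in both pairs. Fnip2, a folliculin partner that acts on mTORC1 at the lysosome, was 3.73-fold higher in WT cDC1 than in cDC2 (adjusted p = 0.000387).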

How the data were processed

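Per the labels' protocols, column-extracted total RNA was turned into biotinylated cDNA (WT Pico kit). The deposited intensity values came from Affymetrix Expression Console with RMA, per the submitters' processing notes, whose versions are not given in the sources used here. They are on a linear scale (3.785 to 13980.744), so log2 was taken. No slide or scan date is known here, and the sets of arrays were found from their medians.

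Of 28853 probe sets, 21789 had 1 gene in the platform annotation, 1621 several and 5443 none there; 21698 matched RefSeq (GRCm38.p6) by Entrez ID. Probe sets that exceeded their array's median on 3 or more arrays were tested, and the brightest stood for its gene (12157 genes). limma 3.58.1 in R 4.3.3 (data.table, version 1.17.8) fitted 6 group means to 23 arrays, with 17 residual degrees of freedom. It used eBayes and 13 two-sided contrasts. In simulated data, cKO minus WT in cDC1 recovered 31% of 100 genes changed by 1 log2 unit. It recovered 98% of 100 genes changed by 2, with 6 false calls. The simulated noise was independent between arrays and held no array sets, unlike these data. Errors are limma SE or group SD, and precision is limited by how few arrays there are. Figures used matplotlib 3.10.9 and numpy 2.4.6.

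Replicate numbers were checked for pairing by the correlation of deviations from group means. All 9 same-numbered WT pairs across cell types exceeded 0.1 (0.38 to 0.70), and so did 8 of 13 cKO pairs and 5 of 9 pairs between genotypes. Medians were 0.6 for the WT pairs and 0.52 for the cKO pairs, against -0.2 for different numbers. WT arrays of the same number also lay in the same array set in every cell type. WT arrays 1 and 2 were both in the low-median set, yet only array 1 of each WT cell type carried high Xist. With the low set parted once more, as given with the processing, each WT number was a set of its own. A pairing of WT arrays by number cannot be told apart from that finer split. No label states a pairing, and the main tests used none.

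Members named with values are those called between genotypes, the 4 largest called differences of each WT pair of cell types (Ctsl, Ctse, Ctsa, Ctsb, Ctso, Atp6v0a2), and the 2 smallest p values where none passed; Lamp2, Atp6v1b2, Atp6v1d, Atp6v1h, Ctsh, Ctss and Ctsd were added after their values were seen. The members and lists were chosen with earlier results of these data known. Alternatives were quantile normalization, other filters, array set or replicate number as a term, probe set means, limma-trend, and arrays left out.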

Additional observations from a re-analysis of the deposited data

Results flagged for a closer look

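In 3 of 27 groups of 4 or 5 arrays examined for the named members, a single array stood apart from the others by Dixon's criterion, and chance gives about 1 in 20. Ctsl in cKO pDC array 1 read 9.73, with the other 4 between 10.19 and 10.28. Ctsb in cKO cDC2 array 3 read 9.02, with the others between 9.69 and 9.92. That low value is not isolated, as in every group Ctsb was lowest on an array of the same part of the low-median set. These were array 2 in both cDC1 groups, WT cDC2 and WT pDC, and array 3 in cKO cDC2 and cKO pDC. They form 1 of the sets in the split into 3 given below. Ctsw in cKO pDC array 5 read 7.37, with the others between 6.14 and 6.47. These are given as values.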

How the results depend on the processing

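No result changed sign between called values. Counts of called members moved past 1.5 times as follows, and the cause was not tested. Quantile normalization gave 2 for cKO minus WT in cDC1, 1 for the genotype effect in cDC1 minus pDC and 5 for cKO cDC1 minus cKO cDC2. Without a filter, and with limma-trend and robust eBayes, the count for cDC1 was 0 (Ctsc at adjusted p of 0.0573 and 0.0511). The array set as a term gave 2 for cDC1, 2 for the mean effect, 1 for cDC1 minus pDC and 6 for cKO cDC1 minus cKO cDC2. A split into 3 array sets, the low set being parted once more after seeing the data, gave 3 for cDC1, 2 for cDC2, 3 for the mean effect, 1 each for cDC1 minus cDC2 and cDC1 minus pDC, 6 and 13 for WT cDC1 against cDC2 and pDC, 10 for cKO cDC1 minus cKO cDC2 and 14 for cKO cDC2 minus cKO pDC; sets drawn from the same values are no independent support. The replicate block gave 1 for cDC1 minus pDC and 9 for cKO cDC1 minus cKO cDC2, and ended the Lamp1 call in cDC2 (0.96, adjusted p = 0.0717). As a block within the genotype it gave 10 for WT cDC1 minus WT pDC and 9 for cKO cDC1 minus cKO cDC2. Without WT replicate 1 of every cell type the count was 0 in cDC1, 0 in cDC2 and 2 for WT cDC2 minus WT pDC.

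With each array left out in turn, the count was 0 to 1 in cDC1 (lost in 10 of 23 fits), 0 to 1 in cDC2 (lost in 6), 0 in pDC, 1 for the mean effect and 0 for the differences between effects. It was 3 to 4, 5 to 9 and 4 to 7 for the WT pairs and 2 to 3, 9 to 12 and 9 for the cKO pairs. Leaving out any cKO cDC1 array but array 1, or WT cDC1 array 1 or 2, ended the Ctsc call (adjusted p of 0.0971 to 0.464); so did WT cDC2 array 2, cKO cDC2 arrays 2, 3 and 4 and cKO pDC array 2 (0.0516 to 0.0545). Leaving out WT cDC2 array 1 or 2, or any cKO cDC2 array but array 3, ended the Lamp1 call in cDC2 (0.0515 to 0.248). Among all genes called, quantile normalization lowered the share that was higher from 61.4 to 51.4% for cKO cDC1 minus cKO pDC, from 65 to 53.7% for cKO cDC2 minus cKO pDC and from 74.6 to 60.3% for the genotype effect in cDC2 minus pDC. The replicate block lowered it from 89.3 to 59.5% for the mean genotype effect and from 74.2 to 54.9% in cDC2, and raised it from 44.7 to 59.7% for cKO cDC1 minus cKO cDC2. The array set as a term lowered it from 61.8 to 51.6% for the effect in cDC1 minus cDC2, and the 3 sets from 98 to 86.3% in cDC1 and from 89.3 to 75.5% for the mean effect. The many values near the array median limit what can be said of dim members such as Ctsf, Ctsw and Ctsd.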
